A study of Mus musculus with 2 samples.

Results

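The γ-, δ- and ε-tubulin genes and the genes of the γ-tubulin ring complex were examined in testes of 9-day-old (P9) mice that had lost *Bcas2*, a core gene of the Prp19 splicing complex, in germ cells. The members were chosen by gene symbol and comprised 9 of the 39695 gene entries in the deposited tables: the γ-tubulins *Tubg1* and *Tubg2*, the ring complex genes *Tubgcp2*, *Tubgcp3*, *Tubgcp4*, *Tubgcp5* and *Tubgcp6*, the δ-tubulin *Tubd1* and the ε-tubulin *Tube1*. Each had 1 entry, and all 9 passed the filter on low values, a mean of 1 RPKM or more in the pair of libraries. RNA from whole testes had been sequenced from 1 control library and 1 Bcas2F/-;Vasa-Cre library. Per the study's methods, controls were Bcas2F/- males without the transgene, so the floxed and the deleted allele were common to both genotypes, and Cre recombinase is driven by the germ cell promoter of *Vasa*. The strain is C57BL/6 per the labels, while a mixed background is described in the methods. How many animals contributed to a library is not given in the sources used here. With 1 library per genotype there was no replicate error, and no p-value was computed. Intervals are 95% Clopper-Pearson intervals of reads and cover counting error only.

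Microtubules grow from γ-tubulin, which binds proteins of the GCP family and is arranged by them into a ring that serves as a template. GCP2 and GCP3, the products of *Tubgcp2* and *Tubgcp3*, form the small complex with γ-tubulin, and GCP4, GCP5 and GCP6 join these to complete the ring at centrosomes and spindles. δ- and ε-tubulin are distant relatives that are needed for the triplet microtubules of centrioles, from which the sperm flagellum is later built. The comparison addresses whether the mRNA levels of these genes differed after germ cell loss of *Bcas2*, since earlier work cited by the study had linked BCAS2 to the splicing of γ-tubulin pre-mRNA. Gene-level RPKM, the reads of a gene scaled to its length and to the library size, does not resolve introns or isoforms.

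*Tubg1* and *Tubg2* lie on the plus strand of chromosome 11 of GRCm38, from 101119938 to 101126419 and from 101155907 to 101161787, with 29487 bases between them. Because reads that match both genes cannot be placed, their coding sequences were compared first. Both coding sequences in GENCODE M21 had 1353 bases in transcripts of 11 exons, and 1262 of these bases (93.3%) were identical without a gap. Of the 451 codons, 83 differed, and 15 of these encode another residue. The longest identical run was 164 bases. A stretch of 120 bases inside it shows why single reads can fit both genes. It covers coding positions 640 to 759 in exons 7 and 8, which span chr11:101124266-101124488 in *Tubg1* and chr11:101160090-101160312 in *Tubg2*, and no base differs between the genes.
Tubg1 and Tubg2: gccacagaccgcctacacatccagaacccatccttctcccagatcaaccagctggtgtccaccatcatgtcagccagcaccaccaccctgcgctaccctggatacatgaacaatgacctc

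The 120 bases in which the pair was least alike lie in exon 11, the last exon, at chr11:101126033-101126152 in *Tubg1* and chr11:101161406-101161525 in *Tubg2*. Capitals mark the 23 bases that differ, and a read from here can be placed on its own gene.
Tubg1: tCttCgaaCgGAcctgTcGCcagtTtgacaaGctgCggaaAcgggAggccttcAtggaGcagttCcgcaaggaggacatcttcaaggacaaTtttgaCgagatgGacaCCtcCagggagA
Tubg2: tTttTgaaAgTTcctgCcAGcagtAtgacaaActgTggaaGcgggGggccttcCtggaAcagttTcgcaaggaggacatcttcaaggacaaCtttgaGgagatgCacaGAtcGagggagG

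The tubulin members share the glycine-rich tubulin signature, which contacts the phosphates of the bound nucleotide. It was found in all 4 by translating the coding sequence, and the 21 bases that encode it are shown because they mark these genes as one family. Capitals mark bases that differ from *Tubg1*, of which there were 2 in *Tubg2* and 5 each in *Tubd1* and *Tube1*. The bases lie at chr11:101123438-101123458 in exon 5 of *Tubg1*, at chr11:101157807-101157827 in exon 5 of *Tubg2*, at chr11:86552894-86552914 in exon 4 of *Tubd1* and within chr10:39142370-39144388, across exons 6 and 7, in *Tube1*, all on the plus strand.
Tubg1: gctggggggacaggctctggc
Tubg2: gctggggggacaggTtctggT
Tubd1: gcCgggggAacaggAtcAggG
Tube1: gGCggAggAacaggctctggG

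The extent of sequence shared with other genes differed between the members. Of all 50-base windows in the longest coding transcript, 14.1% of those of *Tubg1* and 14.3% of those of *Tubg2* occurred in a transcript of another gene, 244 of them in the other member of the pair. These are shares of windows and not of the reads, which were paired and whose placement was not examined. *Tubd1* and *Tubgcp5* had no such window. The largest share belonged to *Tubgcp4*, in which 47.4% of the windows were also found in *Trp53bp1*, a gene on the opposite strand whose annotated exons overlap 2130 of the 8395 exonic bases of *Tubgcp4*. Smaller overlaps on opposite strands involved *Tubgcp2* and *Zfp511* (216 bases), *Tubgcp6* and *Selenoo* (998 bases), *Tube1* and *Ccn6* (482 bases) and *Tubgcp3* and *4931415C17Rik* (63 bases). *Tubgcp4* also shared 57 exonic bases with *Zscan29*. How reads in overlapping exons were counted, and whether strand was used, is not given in the sources used here, so the values of these members are uncertain to that extent. *Trp53bp1* had 51.8 RPKM in control and 53.1 in Bcas2F/-;Vasa-Cre testes (log2 ratio 0.033), and *Ccn6* had 0.531 and 0.985 RPKM.

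Read numbers were worked out from the decimals of RPKM. The values of every member became whole reads at a single gene length, within 0.01 read, with library sizes of 19918750 reads in the control and 19331687 in the Bcas2F/-;Vasa-Cre library. These sizes are the totals behind the RPKM and are smaller than the numbers of mapped reads in the study, a difference that was not examined. The targeted gene was examined first. *Bcas2* had 39.5 RPKM in control and 25.7 in Bcas2F/-;Vasa-Cre testes, from 1410 and 888 reads. Its log2 ratio of RPKM + 1 was -0.60, past the 1.5-fold threshold, although the interval from -0.72 to -0.49 included that threshold. Markers of several testis cell types fixed for the comparison were present in both libraries, whereas 3 of the 4 spermatid markers had a mean RPKM below 1. The 9 spermatogonia markers had a median log2 ratio of -0.37, with 7 below 0 and 2 above. Among them 1 gene, *Stra8*, was more than 1.5-fold lower, and the summed level of the 9 was 490 and 377 RPKM. All 4 markers of meiosis prophase I lay below 0, with a median of -0.47, a summed level of 84.1 and 54.2 RPKM and *Smc1b* more than 1.5-fold lower. The 6 Sertoli cell markers had a median of 0.080, the 5 Leydig cell markers one of 0.36, with 3 above 0 and 2 below, and a summed level of 381 and 425 RPKM. Among them *Cyp17a1* was more than 1.5-fold higher at 0.68, whereas the most abundant, *Hsd3b1*, had a log2 ratio of -0.17. Medians of the peritubular myoid, endothelial and macrophage markers lay between -0.16 and -0.084. All 3 neutrophil markers past the filter were more than 1.5-fold lower, and the summed RPKM of the 4 listed was 22.4 in control and 1.35 in Bcas2F/-;Vasa-Cre testes. Of 6 red cell markers, 2 were more than 1.5-fold lower, with a summed level of 980 and 944 RPKM. The part of these cell type differences in the values of the members was not tested. In whole testes, fewer cells of a type and less RNA per cell cannot be told apart. By real-time RT-PCR at P9, the study reported similar levels of *Stra8* and other spermatogonial genes in both genotypes. It reported lower levels of meiosis prophase I genes. At a later age, its counts of PLZF-positive spermatogonia did not differ significantly.

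None of the 9 tubulin and ring complex genes differed by more than 1.5-fold between the libraries. Their log2 ratios of RPKM + 1, Bcas2F/-;Vasa-Cre over control, ran from -0.25 for *Tube1* to 0.13 for *Tubg2*. The median was -0.040, against 0.015 over the 14831 genes that passed the filter, and 6 members lay below 0 and 3 above. Among all these genes, 1.69% were lower by more than 1.5-fold and 1.57% were higher, together 3.26%. A count of 0 among 9 genes therefore does not stand apart from the background. Because RNA came from whole testes, levels in germ cells alone were not measured. *Bcas2* itself, whose floxed allele was deleted in germ cells only, had an RPKM ratio of 0.65. A larger difference within germ cells could thus stay below the threshold. The SD of the log2 ratios was 0.121 over the members and 0.251 over the 8392 genes with a mean RPKM between the lowest and the highest member. Those genes were chosen by that range only and were not matched on read numbers, so the SDs are not directly comparable. Genes with a negative log2 ratio made up 46.3% of all genes past the filter. The pseudocount of 1 draws the ratios of weakly expressed genes toward 0, so log2 ratios of RPKM without it are given with their intervals in what follows. For 7 members the interval included 0, and for *Tubgcp2* and *Tube1* it lay below 0. It stayed within 1.5-fold in both directions for 7 members, and reached past it on the higher side for *Tubg2* and on the lower side for *Tube1*.

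**Figure D1:**
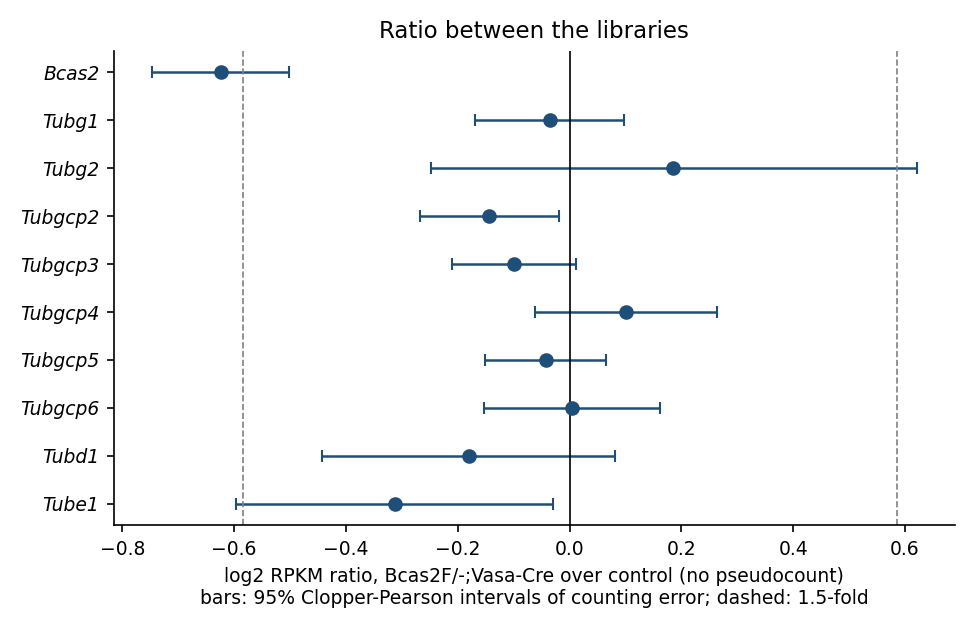
The horizontal axis gives the log2 RPKM ratio of Bcas2F/-;Vasa-Cre over control testes without a pseudocount, and each row is a gene. Points are the ratios of 1 library per genotype, bars are 95% Clopper-Pearson intervals of counting error and dashed lines mark 1.5-fold. *Bcas2* sits at -0.62, left of all 9 members, whose intervals include 0 except for *Tubgcp2* and *Tube1*.

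The γ-tubulin genes differed far more from each other than between genotypes. *Tubg1*, which encodes the γ-tubulin used by dividing cells throughout the body, had 35.5 RPKM in control and 34.7 in Bcas2F/-;Vasa-Cre testes, from 939 and 889 reads. Its log2 RPKM ratio was -0.036, with an interval from -0.17 to 0.098. *Tubg2*, known mainly from brain, had 2.49 and 2.83 RPKM, from 87 and 96 reads. These few reads left the log2 ratio of *Tubg2*, 0.19, with a wide interval from -0.25 to 0.62. The RPKM of *Tubg1* was 14.3-fold that of *Tubg2* in control testes (interval 11.4 to 18.0) and 12.2-fold in Bcas2F/-;Vasa-Cre testes (9.91 to 15.3). *Tubg1* thus made up 93.4% of the γ-tubulin RPKM in control (92.0 to 94.7%) and 92.4% in Bcas2F/-;Vasa-Cre testes (90.8 to 93.9%). The *Tubg1* to *Tubg2* ratio differed between the libraries by -0.22 on the log2 scale, Bcas2F/-;Vasa-Cre over control, with an exact conditional interval from -0.68 to 0.23 that does not depend on library size. When the reads of the pair were added together, which removes any exchange of reads between them, there were 1026 reads in control and 985 in Bcas2F/-;Vasa-Cre testes. The summed log2 ratio was -0.016, with an interval from -0.14 to 0.11.

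Both small complex genes had negative log2 ratios, and the interval lay below 0 for *Tubgcp2* only. *Tubgcp2*, on the minus strand of chromosome 7 from 139995955 to 140036669, had 18.5 RPKM in control and 16.7 in Bcas2F/-;Vasa-Cre testes, from 1136 and 998 reads. Its log2 RPKM ratio was -0.14 with an interval from -0.27 to -0.020, which corresponds to a ratio of 0.905. *Tubgcp3*, on the minus strand of chromosome 8 from 12614277 to 12672248, had 30.5 and 28.5 RPKM from 1400 and 1268 reads, the highest level of the GCP genes in RPKM. Its log2 ratio was -0.100 (-0.21 to 0.011). Counted together, reads of the pair were 2536 in control and 2266 in Bcas2F/-;Vasa-Cre testes, a log2 ratio of -0.12 (-0.20 to -0.037). That interval covers counting error only, the genes are not replicates, and no background of such sums was computed. Differences of the size seen in each gene were common between the libraries. Of all genes past the filter, 21.5% had a lower log2 ratio of RPKM + 1 than *Tubgcp2* and 27.5% a lower one than *Tubgcp3*.

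The genes that complete the ring did not share a direction. *Tubgcp4*, on the plus strand of chromosome 2 from 121170654 to 121198770, had 16.1 RPKM in control and 17.2 in Bcas2F/-;Vasa-Cre testes, from 612 and 637 reads. Its log2 RPKM ratio was 0.10, the highest of the GCP genes, and its interval from -0.061 to 0.26 included 0. *Tubgcp5*, on the plus strand of chromosome 7 from 55794154 to 55831677, had 19.6 and 19.1 RPKM, for which 1440 and 1357 reads gave a log2 RPKM ratio of -0.042 (-0.15 to 0.065). *Tubgcp6*, which encodes the largest GCP and lies on the minus strand of chromosome 15 from 89098357 to 89123112, had 16.6 RPKM in both libraries. Its log2 ratio was 0.0040 (-0.15 to 0.16) from 672 and 654 reads, a read number that rests on a length of 2036 bases and could be wrong by a whole factor. Reads of these genes added together were 2724 in control and 2648 in Bcas2F/-;Vasa-Cre testes, a log2 ratio of 0.0023 (-0.075 to 0.080). The difference between this sum and that of the small complex genes was not tested. As a share of the RPKM of all GCP genes, *Tubgcp2* made up 18.3% in control and 17.1% in Bcas2F/-;Vasa-Cre testes, *Tubgcp3* 30.1% and 29.0%, *Tubgcp4* 15.9% and 17.6%, *Tubgcp5* 19.4% in both and *Tubgcp6* 16.4% and 16.9%. These shares depended on the gene length used. Per kilobase of the longest coding transcript in GENCODE M21, *Tubgcp2* made up 27.7% and 26.2%, *Tubgcp3* 27.5% and 26.9% and *Tubgcp5* 27.5% and 28.0%. *Tubgcp4* then made up 10.7% and 12.1%, and *Tubgcp6* 6.56% and 6.89%. All shares on this scale rest on recovered reads, and would change if the read number of *Tubgcp6* were wrong by a whole factor.

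The δ- and ε-tubulin genes had the lowest log2 ratios of the members. *Tubd1*, on the plus strand of chromosome 11 from 86544991 to 86567360, had 7.68 RPKM in control and 6.78 in Bcas2F/-;Vasa-Cre testes, from 265 and 227 reads. Its log2 RPKM ratio of -0.18 had an interval from -0.44 to 0.081. *Tube1*, on the plus strand of chromosome 10 from 39133976 to 39152542, had 4.08 and 3.28 RPKM from 238 and 186 reads. The log2 RPKM ratio of *Tube1* was -0.31, the most negative among the members, with an interval from -0.60 to -0.030. On the scale of RPKM + 1, 10.5% of all genes past the filter were lower than *Tube1* and 18.5% lower than *Tubd1*. The reads of both genes added together were 503 in control and 413 in Bcas2F/-;Vasa-Cre testes, a log2 ratio of -0.24 (-0.43 to -0.051). This interval covers counting error only, and the genes are not replicates of a genotype. No background of such sums was computed, and the interval of *Tubd1* alone included 0.

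**Figure D2:**
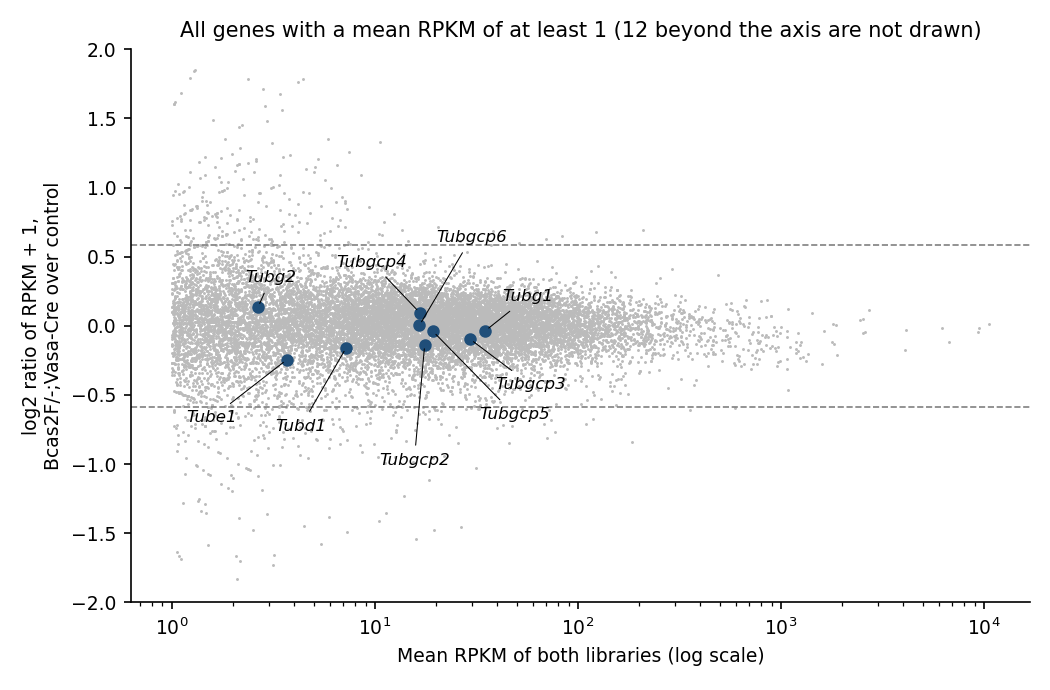
The horizontal axis is the mean RPKM of both libraries on a log scale and the vertical axis the log2 ratio of RPKM + 1, Bcas2F/-;Vasa-Cre over control. Grey points are all genes past the filter, of which 12 beyond 2 in either direction are not drawn, blue points are the 9 members and dashed lines mark 1.5-fold. All members lie inside the dashed lines, *Tube1* lowest at -0.25 and *Tubg2* highest at 0.13.

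The order of the levels depended on the gene length used. The RPKM of 4 members (*Tubg1*, *Tubg2*, *Tubgcp3* and *Tubd1*) came out whole at the rounded mean length of all their annotated transcripts in GENCODE M21, and those of the others at lengths from 1912 to 3681 bases. In RPKM, *Tubg1* stood first in both libraries, followed by *Tubgcp3* and *Tubgcp5*. *Tubgcp2*, *Tubgcp6* and *Tubgcp4* came next in control testes, and *Tubgcp4*, *Tubgcp2* and *Tubgcp6* in Bcas2F/-;Vasa-Cre testes. *Tubd1*, *Tube1* and *Tubg2* were the last 3 in that order in both. In control testes the neighbours *Tubgcp5* and *Tubgcp2* (1.06-fold, interval 0.982 to 1.15) and *Tubgcp6* and *Tubgcp4* (1.03-fold, 0.923 to 1.15) could not be separated by counting error. In Bcas2F/-;Vasa-Cre testes this held for *Tubgcp4* and *Tubgcp2*, for *Tubgcp2* and *Tubgcp6* and for *Tube1* and *Tubg2*, the last at a ratio of 1.16.

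When the same reads were divided by the length of the longest coding transcript, the GCP genes fell into separate levels. Scaled to library size as in RPKM, *Tubg1* remained first with 26.2 in control and 25.5 in Bcas2F/-;Vasa-Cre testes. *Tubgcp2*, *Tubgcp5* and *Tubgcp3* then had nearly the same level in control testes, 18.6, 18.5 and 18.5, and 16.9, 18.0 and 17.3 in Bcas2F/-;Vasa-Cre testes. *Tubgcp4* had 7.23 and 7.75, since its longest coding transcript has 4250 bases against a length of 1912 behind the RPKM. *Tubgcp6* had 4.42 and 4.43, with 7635 bases against 2036, and stood next to *Tube1*. This level and place of *Tubgcp6* would change if its read number were wrong by a whole factor. *Tube1* kept its 4.08 and 3.28 because its RPKM already rested on the 2929 bases of its longest coding transcript. *Tubg1* was 10.5-fold above *Tubg2* in control (8.43 to 13.2) and 9.01-fold in Bcas2F/-;Vasa-Cre testes (7.30 to 11.2) on this scale. Ratios of a gene between the libraries do not change with its length. Which transcripts these genes use in testes was not examined.

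**Figure D3:**
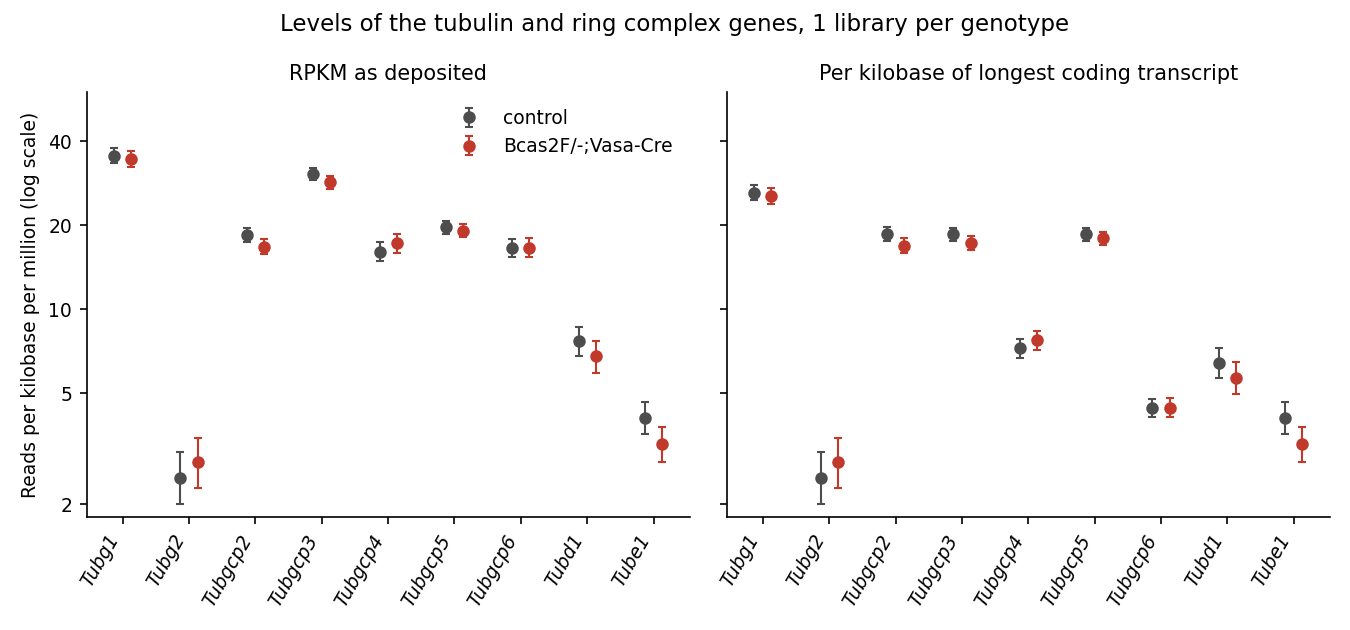
The vertical axes give RPKM on a log scale, with the length behind the deposited RPKM on the left and the longest coding transcript in GENCODE M21 on the right. Points are single libraries, dark grey for control and red for Bcas2F/-;Vasa-Cre, and bars are 95% Clopper-Pearson intervals of counting error. The libraries lie side by side for every member, *Tubg1* is first and *Tubg2* last in both panels, and from left to right every gene moves down except *Tubgcp2*, *Tubg2* and *Tube1*, *Tubgcp6* and *Tubgcp4* the furthest. The place of *Tubgcp6* on the right rests on a read number that could be wrong by a whole factor.

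Genes that work with these tubulins were compared in 6 pathway lists. Of 67 listed genes, all past the filter, 0 were lower and 0 higher by more than 1.5-fold, a count that does not stand apart from the background of 1.69% and 1.57%. The 11 genes that recruit or bind the ring complex, among them *Nedd1*, *Mzt1* and the centrosome scaffold *Pcnt*, had a median log2 ratio of RPKM + 1 of 0.012 and ran from -0.28 for *Nme7* to 0.18 for *Nin*. *Nme7* had 24.9 RPKM in control and 20.3 in Bcas2F/-;Vasa-Cre testes. The 8 subunits of augmin, which brings the ring complex to existing spindle microtubules, had a median of -0.048, with *Haus8* lowest at -0.35 (30.6 and 23.8 RPKM) and *Haus3* highest at 0.12. The 6 nucleation cofactors and end-binding or destabilizing proteins had a median of 0.0012, and ran from -0.45 for *Stmn1* (322 and 235 RPKM), which sequesters tubulin, to 0.20 for *Camsap2*. The 22 genes of centriole duplication and the triplet had a median of -0.0052, with *Poc1a* lowest at -0.39 (9.38 and 6.94 RPKM) and *Cep135* highest at 0.24.

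The last lists lay further from 0. The 14 genes of tubulin folding, the chaperonin subunits and tubulin cofactors, had a median log2 ratio of RPKM + 1 of -0.14, and 12 of them were below 0. They ran from -0.23 for *Cct4* (315 and 268 RPKM) to 0.16 for *Tbcd*. All 6 proliferation genes lay below 0, with a median of -0.22, from -0.49 for *Top2a* (207 and 147 RPKM) to -0.086 for *Cdk1*. These values are shown beside the members because the ring complex is used in cell division. Their part in the values of *Tubgcp2*, *Tubgcp3*, *Tubd1* and *Tube1* was not tested.

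**Figure D4:**
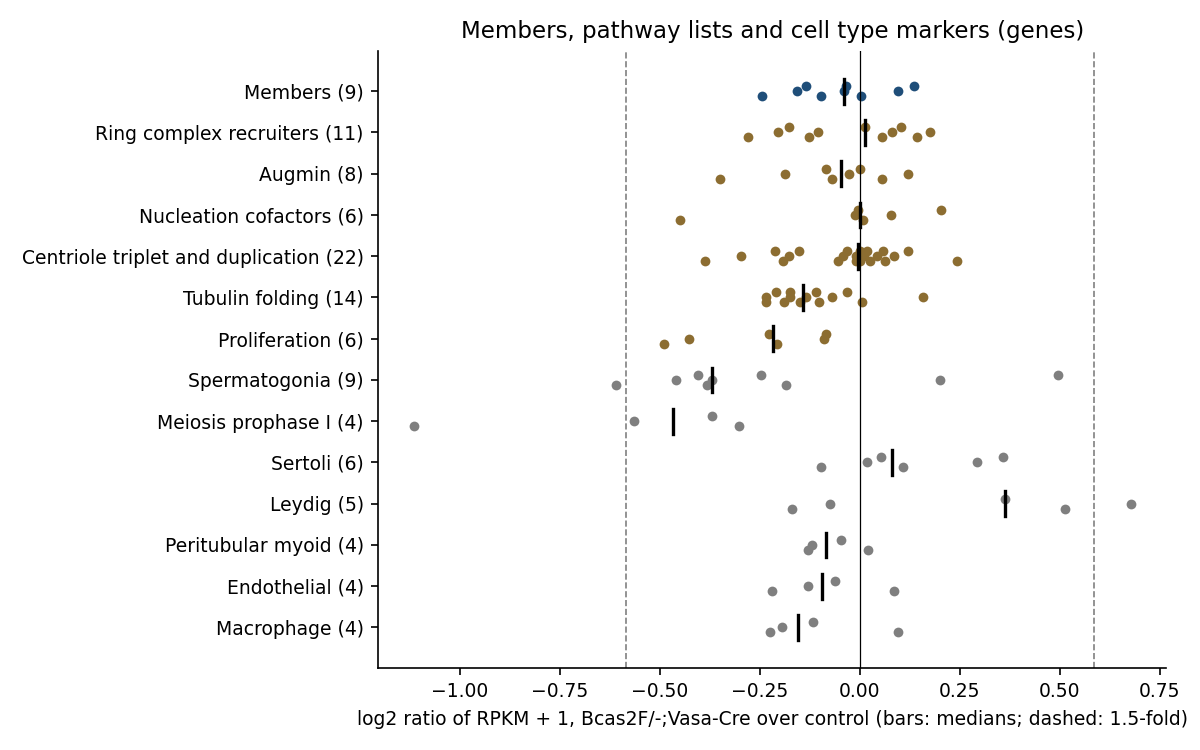
The horizontal axis is the log2 ratio of RPKM + 1, Bcas2F/-;Vasa-Cre over control, each point is a gene, black bars are medians and dashed lines mark 1.5-fold. The 9 members are blue, the 6 pathway lists brown and the cell type markers grey, with the number of genes past the filter in brackets, and spermatid, red cell and neutrophil markers are not drawn. The members are centred at -0.040, between the spermatogonia markers at -0.37 and the Sertoli cell markers at 0.080. The medians of the pathway lists and of the peritubular myoid, endothelial and macrophage markers lie in the same span.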

How the data were processed

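RNA from P9 testes was sequenced in 1 control and 1 Bcas2F/-;Vasa-Cre library. The authors removed adaptor and low-quality reads, aligned paired-end reads with TopHat2 (version 2.0.9 and build mm10 in the submitters' processing notes), obtained read numbers for each gene from HTSeq, and deposited them as RPKM. The annotation release is not given in the sources used here. Of 39695 entries, 37692 (95.0%) had an identifier found in GENCODE M21 (GRCm38, the same assembly), and 517 carried no Ensembl identifier.

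Log2 ratios were computed on RPKM + 1 for genes whose mean was 1 RPKM or more. The library sizes were found from genes with a single annotated transcript. Reads were then recovered as the whole numbers that fit both RPKM values of a gene at a single length, nearest to its mean transcript length. The procedure was tried on simulated data in which every gene had its rounded mean transcript length. That trial therefore cannot check the read numbers of members whose length differs from it. Recovered reads added up to 98.4% and 98.2% of the library sizes. No test between genotypes was possible with 1 library each. The members and lists were chosen with earlier results of these data known. All 9 members, the targeted gene and, from each pathway list, the lowest and highest genes are named. *Nedd1*, *Mzt1*, *Pcnt*, the genes overlapping members and 4 cell type markers, 3 of them past 1.5-fold, are named in addition, chosen after their values were seen. Alternatives were pseudocounts of 0.1 and 0.01, 2 other scalings, no filter or a minimum mean of 5 RPKM, and *Tubg1* and *Tubg2* reads added together or not divided by length. Division by the longest coding transcript was added after seeing the data. Sums of reads over the ring complex genes and over *Tubd1* and *Tube1* were not among the planned results. Computations used scipy 1.17.1 and numpy 2.4.6 under Python 3.11.15, tables pandas 2.3.3, and plots matplotlib 3.10.9.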

Additional observations from a re-analysis of the deposited data

How the results depend on the processing

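No paired analysis was possible because each genotype had 1 library, and for the same reason no library could be left out. All 38 log2 ratios of single members under another pseudocount, scaling or pooling of the γ-tubulins stayed within their counting interval. All 35 medians of the members and pathway lists under another pseudocount, scaling or minimum stayed within the interval of their middle gene or genes. That is a loose check, since the medians had no interval of their own. Some medians near 0 changed sign. That of the ring complex recruiters went from 0.012 to -0.047 under a minimum of 5 RPKM. That of the nucleation cofactors went from 0.0012 to -0.014 after centring, and that of the centriole genes from -0.0052 to 0.021 after rescaling. No pseudocount or scaling tried brought a member or pathway list gene past 1.5-fold (0 and 0). The filters could not do so, since they leave the ratio of a gene unchanged. After centring all genes on their median, *Tubgcp6* moved from 0.0038 to -0.011, and with each library rescaled to an equal sum of RPKM it was 0.031, further from 0 than *Tubg1* at -0.0073. Under a minimum mean of 5 RPKM, *Tubg2* and *Tube1* dropped out and 7 members remained. The background counts moved. A filter changes which genes are counted and not their ratios, and a smaller pseudocount draws the ratios of weakly expressed genes less toward 0. Genes more than 1.5-fold lower and higher numbered 251 and 233 of 14831 in the main setting (1.69% and 1.57%). With a pseudocount of 0.1 they were 457 and 454 (3.08% and 3.06%), and with 0.01 they were 485 and 491 (3.27% and 3.31%). Without a filter there were 468 and 511, a smaller share (1.18% and 1.29%) of 39695. The minimum of 5 gave 104 and 46 of 10663 (0.975% and 0.431%). The rescaling gave 356 lower and 434 higher genes among 16133 past the filter (2.21% and 2.69%). The share of *Tubg1* in the γ-tubulin pair, 93.4% in control and 92.4% in Bcas2F/-;Vasa-Cre testes, was 91.5% and 90.3% of reads not divided by length, and 91.3% and 90.0% per kilobase of the longest coding transcript, a choice made after seeing the data that also moved 12 of 18 levels outside their counting interval. Depth limits *Tubg2* most, with 87 and 96 reads.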
